A study of Mus musculus with 4 samples.

Results

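The difference between the retinoic acid (RA) response of AKAP95 knockdown cells and that of scramble control cells was measured for each gene of mouse embryonic stem cells on Illumina bead arrays. The value is the log2 change on RA in the knockdown minus the log2 change on RA in the control. A positive difference thus means a more upward, or less downward, change on RA in the knockdown. It also depends on any gap between the populations before RA. A probe was kept where its signal was detected (detection p under 0.01) on at least 1 of the 2 RA arrays and at least 1 of the 2 undifferentiated arrays. The rule kept 11049 of 25697 probes (43.0%) and 8265 of 17876 genes (46.2%), and 1 probe stood for each gene. At the edge of the rule, the 85 probes with the weakest detection that were kept had differences of -1.42 to 1.61, and the 5 probes just outside had -1.46 to 0.56.

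The cells were of the E14 embryonic stem cell line, grown on gelatin in medium with LIF, the cytokine that holds mouse stem cells in the undifferentiated state. All 4 groups carried a stably integrated shRNA virus. The knockdown RA group expressed AKAP95 shRNA and was differentiated by 4 days without LIF and then 4 days in 1 µM all-trans RA as a monolayer, and the knockdown undifferentiated group expressed the same shRNA with no RA. The scramble RA group and the scramble undifferentiated group expressed Scramble shRNA under those same conditions. Each group was 1 array, so every value below is a size with no replicate and no test, and the labels do not say how many hairpins or infected cultures stand behind a group. Because LIF was withdrawn before RA was given, the RA response holds the effects of both steps.

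AKAP95, the product of Akap8, is a nuclear scaffold protein that binds protein kinase A and associates with the MLL complexes. These complexes methylate histone H3 on lysine 4 at gene starts and are known for helping to switch genes on when stem cells differentiate. RA binds nuclear receptors that sit on DNA as RAR and RXR pairs, and in embryonic stem cells it is known to switch on Hox and neural genes while the pluripotency network shuts down.

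Akap8 itself was lower in the knockdown at both stages. Its signal was 199.7 on the knockdown RA array and 139 on the knockdown undifferentiated array, against 297 on the scramble RA array and 272 on the scramble undifferentiated array. The knockdown minus scramble value was -0.77 (log2) on the RA arrays and -1.18 on the undifferentiated arrays, so its gap was narrower after RA, by a difference of responses of 0.42. Akap8l, its paralog, had a difference of 0.00. The 4 arrays had median signals of 75.1 to 82.8 and detected 11344 to 12156 probes each, the most on the knockdown RA array.

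Of the 8200 genes that could be compared, 283 had a difference of 1 or more (2-fold, called higher below) and 179 had a difference of -1 or less (called lower). These are 3.45% and 2.18% of the genes compared, the background for the counts of gene lists below. At 4-fold, 38 genes were higher (0.463%) and 20 were lower (0.244%). Most genes had much the same RA response in both populations: 6247 of 8200 (76.2%) had a difference within 0.5 of 0, and the median was 0.02. The remaining 65 kept genes were undetected on arrays that pull the value in opposite ways, so no direction was read for them. Where an undetected array makes a difference a bound it is given as "at least" or "at most".

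The spread of the differences was wider than that between probes of the same gene. Over the 7591 genes measured on all 4 arrays the SD of the difference was 0.504 (log2), against 0.936 for the mean RA response of both populations. Different probes of the same gene differed with an SD of 0.232 (1855 genes, 4313 probes). That second SD covers probe error within these arrays and none of the variation between cultures. For the called genes that had other kept probes, 60 of 62 other probes of higher genes and 37 of 39 other probes of lower genes had the sign of the chosen probe, with medians of 0.99 and -0.91. Fewer passed 2-fold in that direction, 31 of the 62 and 16 of the 39. All of these probes read the same arrays.

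**Figure D1:**
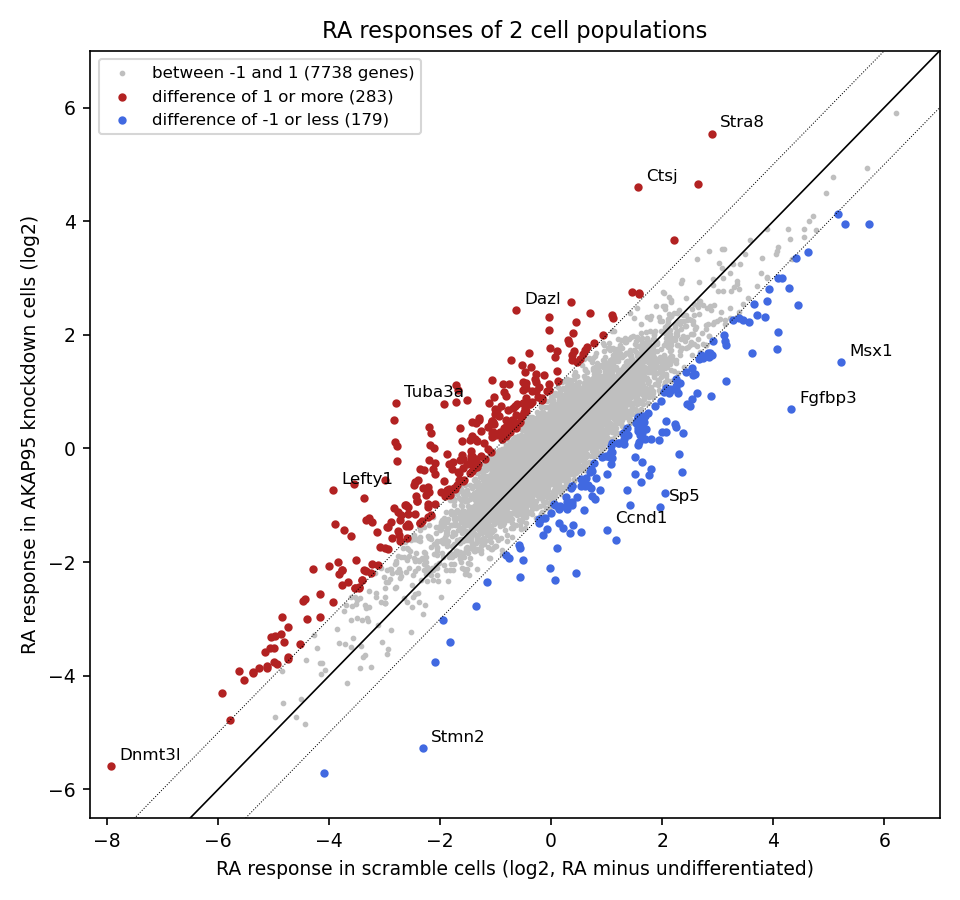
RA response (log2, RA minus undifferentiated) of each of 8200 genes in AKAP95 knockdown cells (vertical axis) and in scramble cells (horizontal axis), 1 array per group. The solid line marks equal responses and the dotted lines a difference of 1 either way. The 283 genes above the upper dotted line and the 179 below the lower one are coloured, and Tuba3a, Dazl and Lefty1 lie far above the line while Msx1 and Fgfbp3 lie far below it.

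The differences sat at the RA end of the comparison. Among the 283 higher genes the median knockdown minus scramble value was 1.32 on the RA arrays and -0.11 on the undifferentiated arrays. Among the 179 lower genes it was -1.21 on the RA arrays and 0.13 on the undifferentiated arrays. The undifferentiated arrays differed by less than 0.5 for 251 higher genes (88.7%) and 149 lower genes (83.2%), against 95.3% of all genes compared. Only 2 higher and 2 lower genes had a 2-fold gap of the opposite sign before RA. Over all genes measured on 4 arrays the SD of the knockdown minus scramble value was 0.491 on the RA arrays and 0.229 on the undifferentiated arrays.

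**Figure D2:**
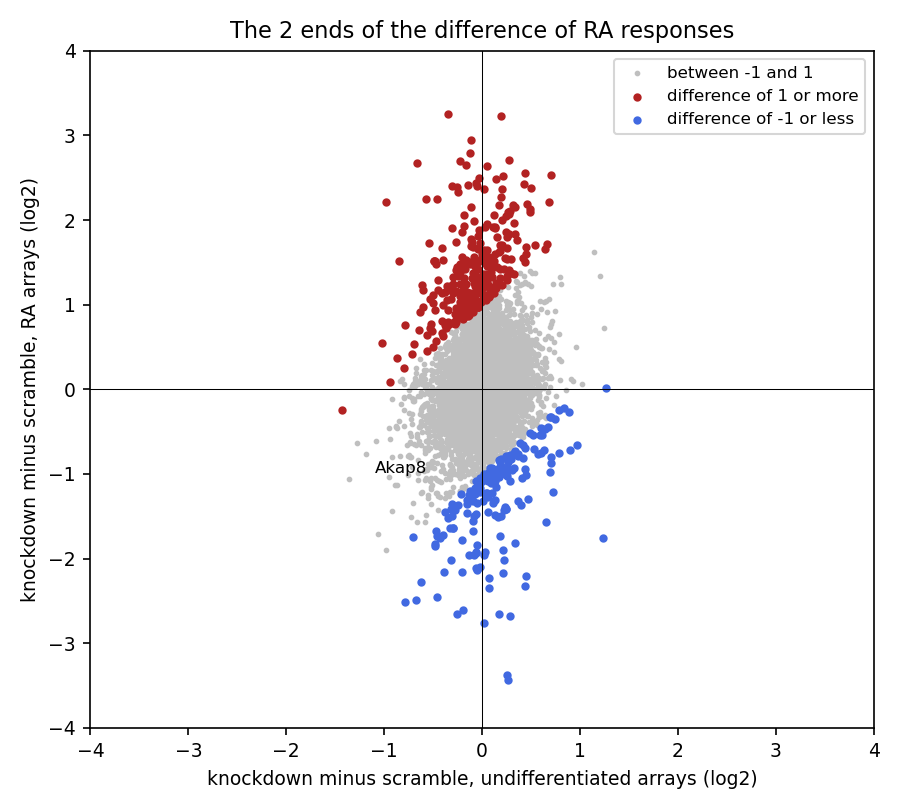
Knockdown minus scramble value (log2) of each gene on the RA arrays (vertical axis) and on the undifferentiated arrays (horizontal axis). Coloured points are genes with a difference of RA responses of 1 or more or of -1 or less. The cloud is taller than it is wide (SD 0.491 against 0.229), and most coloured points lie close to the vertical line of no gap before RA.

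The higher genes were mostly genes that RA switched down in the control and that held up better in the knockdown. The call uses these same 2 responses, so it favours a low control response among higher genes and a high one among lower genes. Of the 283, 101 fell 2-fold or more in scramble cells and moved less than 2-fold in the knockdown, and 84 fell in both. A further 46 rose 2-fold or more in the knockdown and moved less than 2-fold in the control. The median RA response of the higher genes was -0.14 in the knockdown and -1.60 in scramble cells. The lower genes were the mirror image: 68 of 179 rose in scramble cells and moved less than 2-fold in the knockdown, 46 rose in both, and 28 fell in the knockdown alone. Their median RA response was 0.10 in the knockdown and 1.56 in scramble cells. Among all 8200 genes compared, 362 fell in scramble cells and moved less than 2-fold in the knockdown. Another 326 rose in scramble cells and moved less than 2-fold in the knockdown.

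Genes were also classed by the mean RA response of both populations, a measure that does not use the difference. Of the 842 genes reduced 2-fold or more on average, 67.3% had a positive difference, and their median response was -1.36 in the knockdown and -1.57 in the control. Of the 974 genes induced 2-fold or more on average, 66.7% had a negative difference, with medians of 1.38 in the knockdown and 1.56 in the control. Among the 218 genes reduced 4-fold or more, 179 (82.1%) had a positive difference, and the median responses were -2.38 in the knockdown and -3.06 in scramble cells. Among the 213 genes induced 4-fold or more, 77.5% had a negative difference, with medians of 2.31 in the knockdown and 2.66 in scramble cells. The 6384 genes that moved less than 2-fold on average had a median difference of 0.03. On both sides more genes had the smaller response in the knockdown than in the control, under each setting run; which side had the larger share depended on the setting.

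**Figure D3:**
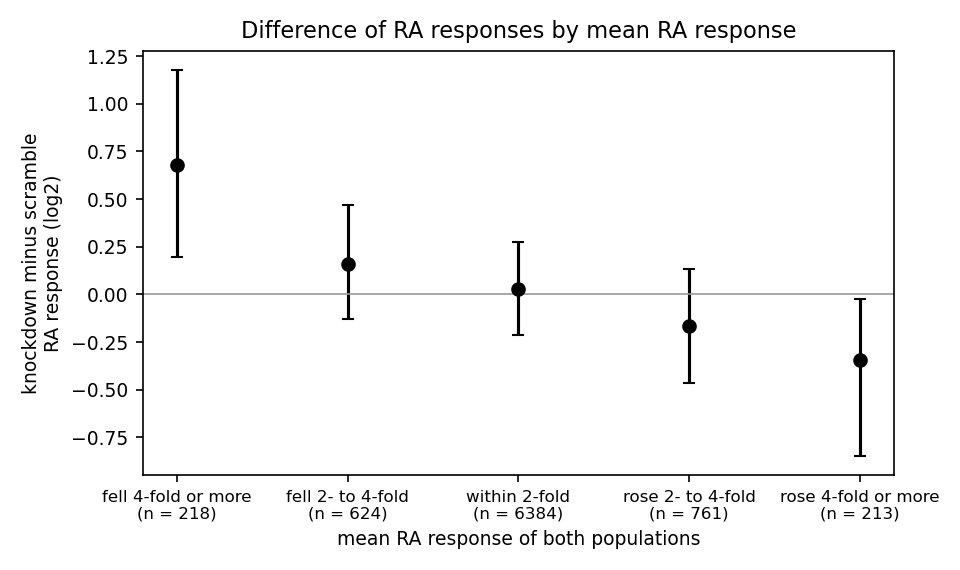
Difference of RA responses (log2, knockdown minus scramble) in 5 classes of genes set by the mean RA response of both populations; points are medians over genes and bars run over the middle 50% of genes. The median is 0.68 in the class reduced 4-fold or more, 0.03 in the class within 2-fold and -0.35 in the class induced 4-fold or more.

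Germ line genes led the positive differences. These genes work in spermatogenesis, oogenesis or meiosis and are normally silent in somatic tissue. Of 16 germ line and meiosis genes compared, 13 were higher and none was lower, and their median difference was 1.83, against 0.02 for all genes. The members of this list and those below were chosen with earlier results of these data known. Their counts are thus not independent of these data. Tuba3a and Tuba3b, both among the 13, are near-identical copies. The median RA response of the list was 0.15 in the knockdown and -1.51 in scramble cells. Summed over all 28 list members with a probe, the signal was 20019.9 on the knockdown RA array and 11261 on the knockdown undifferentiated array, against 5409 on the scramble RA array and 12822 on the scramble undifferentiated array. The scramble RA array alone was low. In these bulk RNA samples, fewer cells of a type and less RNA per cell cannot be told apart, here and for every list below.

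Tuba3a, a testis alpha-tubulin, had the largest positive difference of all genes. Its signal was 2585 on the knockdown RA array and 1420.0 on the knockdown undifferentiated array, against 353 on the scramble RA array and 1929 on the scramble undifferentiated array. It fell 6.94-fold on RA in scramble cells and moved up by 0.80 (log2) in the knockdown, a difference of 3.60, and its 4 probes lay between 3.10 and 3.60. Tuba3b, a near-identical tubulin, gave 1049 and 512 on the knockdown RA and undifferentiated arrays, against 241 and 654 on the scramble RA and undifferentiated arrays, a difference of 2.71. Probes of such close copies can bind both transcripts, so Tuba3a and Tuba3b may not be separate measurements. Both were low on the scramble RA array alone.

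Tex19.2 and its neighbour Tex19.1, mammal-specific genes of germ cells and placenta that restrain transposons, behaved likewise. Tex19.2 gave 406 and 232 on the knockdown RA and undifferentiated arrays, against 101 and 362 on the scramble RA and undifferentiated arrays. It fell 7.08-fold in the control and did not fall in the knockdown, a difference of 3.33. Its scramble RA signal was near the lowest detected on that array (91.3), and with no background correction the difference was 2.50. Tex19.1 had a difference of 2.50, with responses of -0.88 in the knockdown and -3.38 in scramble cells. These also are related copies, and cross-binding of their probes was not tested.

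Dazl, an RNA-binding protein that licenses germ cells for meiosis, went up rather than staying level. Its signal was 4699 on the knockdown RA array, against 847 before RA, while the scramble arrays gave 738 with RA and 955 before it. The knockdown RA array was thus the only high one. The response was 5.39-fold up in the knockdown and 1.55-fold down in the control, a difference of 3.06. Stra8, the RA-induced gatekeeper of meiosis, read 2188 on the knockdown RA array and 493 on the scramble RA array, against undetected and 93.5 on the undifferentiated arrays of the knockdown and the control, a difference of at least 2.65. Rec8, a meiotic cohesin subunit, rose in both populations (3.67 in the knockdown and 2.21 in the control). The other members above 2-fold were Asz1, Mov10l1, Stk31, Taf7l, Sohlh2, Piwil2 and Brdt, with differences of 1.24 to 2.53. Asz1, Mov10l1 and Piwil2 act in the piRNA pathway that silences transposons in the male germ line. The 3 members short of 2-fold were Ddx4 (at least 0.12), Syce2 (0.05) and Tdrd1 (at least -0.18).

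Many germ line promoters carry the E-box CACGTG, which is the site bound by MAX with MGA in a complex known to silence germ line genes in embryonic stem cells, so the promoters were searched for it. The search covered 250 bases before to 50 bases after the most upstream RefSeq start (build GRCm38.p6); the motif reads the same on both strands. It lay in 6 of the 15 germ line promoters with a sequence (40.0%), against 16 of 213 promoters of higher genes (7.51%) and 699 of 6598 promoters of all genes compared (10.6%). The 6 matches are shown here 5′ to 3′ on the gene's strand, with the motif in capitals and up to 17 bases on either side.
Ddx4 (chr13:112652317-112652356): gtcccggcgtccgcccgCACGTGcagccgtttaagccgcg
Taf7l (chrX:134476517-134476556): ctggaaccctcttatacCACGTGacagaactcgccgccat
Stk31 (chr6:49395467-49395506): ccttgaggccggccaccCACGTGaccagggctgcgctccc
Tdrd1 (chr19:56826181-56826220): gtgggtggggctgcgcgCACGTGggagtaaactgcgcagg
Mov10l1 (chr15:88982744-88982770): ccttCACGTGctaaccgccaacctctc
Brdt (chr5:107331099-107331138): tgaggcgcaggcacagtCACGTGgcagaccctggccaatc
Stk31, Tdrd1, Mov10l1 and Brdt lie on the plus strand, Ddx4 and Taf7l on the minus strand. Of the 6 members with the motif 4 were higher (median difference 1.53), and of the 9 without it 8 were (median 2.53). A match is a stretch of letters and not a binding site, and its absence from this window says nothing about MAX or MGA.

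The Rhox genes, a cluster of homeobox genes on the X chromosome that work in the germ line and placenta, were all higher where they could be compared. Rhox5 gave 1854 and 1565 on the knockdown RA and undifferentiated arrays, against 351 and 1929.9 on the scramble RA and undifferentiated arrays. It held its level on RA in the knockdown and fell 7.01-fold in the control, a difference of 2.92. Rhox10 read 392 and 457 in the knockdown with and without RA, against 94.8 and 513 in scramble cells, also a difference of 2.92. Its scramble RA signal was near the lowest detected on that array (91.3), and with no background correction the difference was 2.09. Rhox9 instead rose 4.22-fold in the knockdown and stayed level in the control, and Rhox6 followed it (1.35 and -0.47). Their differences were 2.11 and 1.83. Of the other 8 members with a probe, 2 were detected on RA arrays alone and 6 on no array. All 4 scramble RA signals were below those of the knockdown RA array.

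Other X-linked germ cell genes were near the top as well. Mageb4, a melanoma antigen family member expressed in testis, gave 542 and 217 on the knockdown RA and undifferentiated arrays, against 151 and 315 on the scramble RA and undifferentiated arrays, a difference of 2.83. Fthl17f, a ferritin heavy chain-like gene of a multicopy family, gave 370.2 and 279.8 on the knockdown RA and undifferentiated arrays, against 96.4 and 322 on the scramble ones, a difference of 2.82. Its scramble RA signal was near the lowest detected on that array (91.3), and with no background correction the difference was 2.01. X-linked genes made up 26 of the 283 higher genes (9.19%) and 8 of the 179 lower genes (4.47%), against 281 of the 8200 compared (3.43%).

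Placental genes included several with a larger or better kept signal in the knockdown. Of 11 placenta and trophoblast genes compared, 6 were higher and none lower. The median was 1.15, and it was 0.60 where detection on all 4 arrays was asked for. Ctsj, a placental cysteine protease, read 1396 on the knockdown RA array and 198 on the scramble RA array, against 89.7 and 73.8 on the undifferentiated arrays of the knockdown and the control; the last was not detected. It was strongly induced in both populations and more so in the knockdown, a difference of at most 3.04. Lgals3, a galactose-binding lectin, Tfap2c, a transcription factor of trophoblast and germ cells, and Plac1 had differences of 1.91, 1.35 and 1.15. The keratins Krt7, Krt8 and Krt18 and the trophoblast factor Gata3 rose 2-fold or more in both populations, with differences of -0.57 to 0.05. Rhox6 and Rhox9, counted above, are also members of this list.

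Pluripotency genes fell on RA in both populations and fell less far in the knockdown. Of 28 compared, 16 were higher and none was lower, and the median response was -2.92 in the knockdown and -4.11 in scramble cells. Summed over the 32 members with a probe, their signal was 32062 on the knockdown RA array and 151880.0 on the knockdown undifferentiated array, against 16809 on the scramble RA array and 157613 on the scramble undifferentiated array. After RA the knockdown thus kept the larger remainder, and before RA the sums were close. Bright members weigh most in these sums, and Dppa5a alone gave 9725 and 2649 on the knockdown and scramble RA arrays. Over the 28 members compared, the median knockdown minus scramble value was 1.41 on the RA arrays and 0.03 on the undifferentiated arrays. No member was at 0, since every array carries background signal, and 2 members were detected on no array. The part that cells still undifferentiated after RA play in the differences of other genes was not tested.

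The core and naive factors were not equally affected. Pou5f1, the central pluripotency factor, had responses of -4.31 in the knockdown and -5.93 in the control, a difference of 1.63. Nanog differed by 1.59, Esrrb by 1.46, Zfp42 by 1.71 and Klf2 by 2.17. Klf4 (0.70), Klf5 (0.79), Tbx3 (0.34) and Utf1 (0.24) stayed under 2-fold, and Sox2 (-0.11) and Lin28a (-0.32) had the opposite sign. Sox2 is also used by neural progenitors, and Lin28a blocks maturation of let-7 microRNAs. Dnmt3l, a cofactor of DNA methylation that is high in stem cells, gave 311 and 11264 on the knockdown RA and undifferentiated arrays, against undetected and 10926 on the scramble RA and undifferentiated arrays. Its signal before RA was about equal, and its 2 probes gave differences of at least 2.33 and 2.34.

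The Nodal antagonists Lefty1 and Lefty2, secreted factors that Nodal itself induces, had the largest differences of the pluripotency list. Lefty1 gave 480.4 and 611 on the knockdown RA and undifferentiated arrays, against 140.4 and 1272 on the scramble RA and undifferentiated arrays. It fell 1.67-fold in the knockdown and 15.2-fold in the control, a difference of 3.19. This gene also differed before RA, by -0.99, so part of the difference lies on the undifferentiated arrays. Lefty2 gave 287 and 495 in the knockdown with and without RA, against undetected and 610.2 in scramble cells, a difference of at least 2.57. The 2 genes are close copies. Nodal itself differed by at least 1.01.

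**Figure D4:**
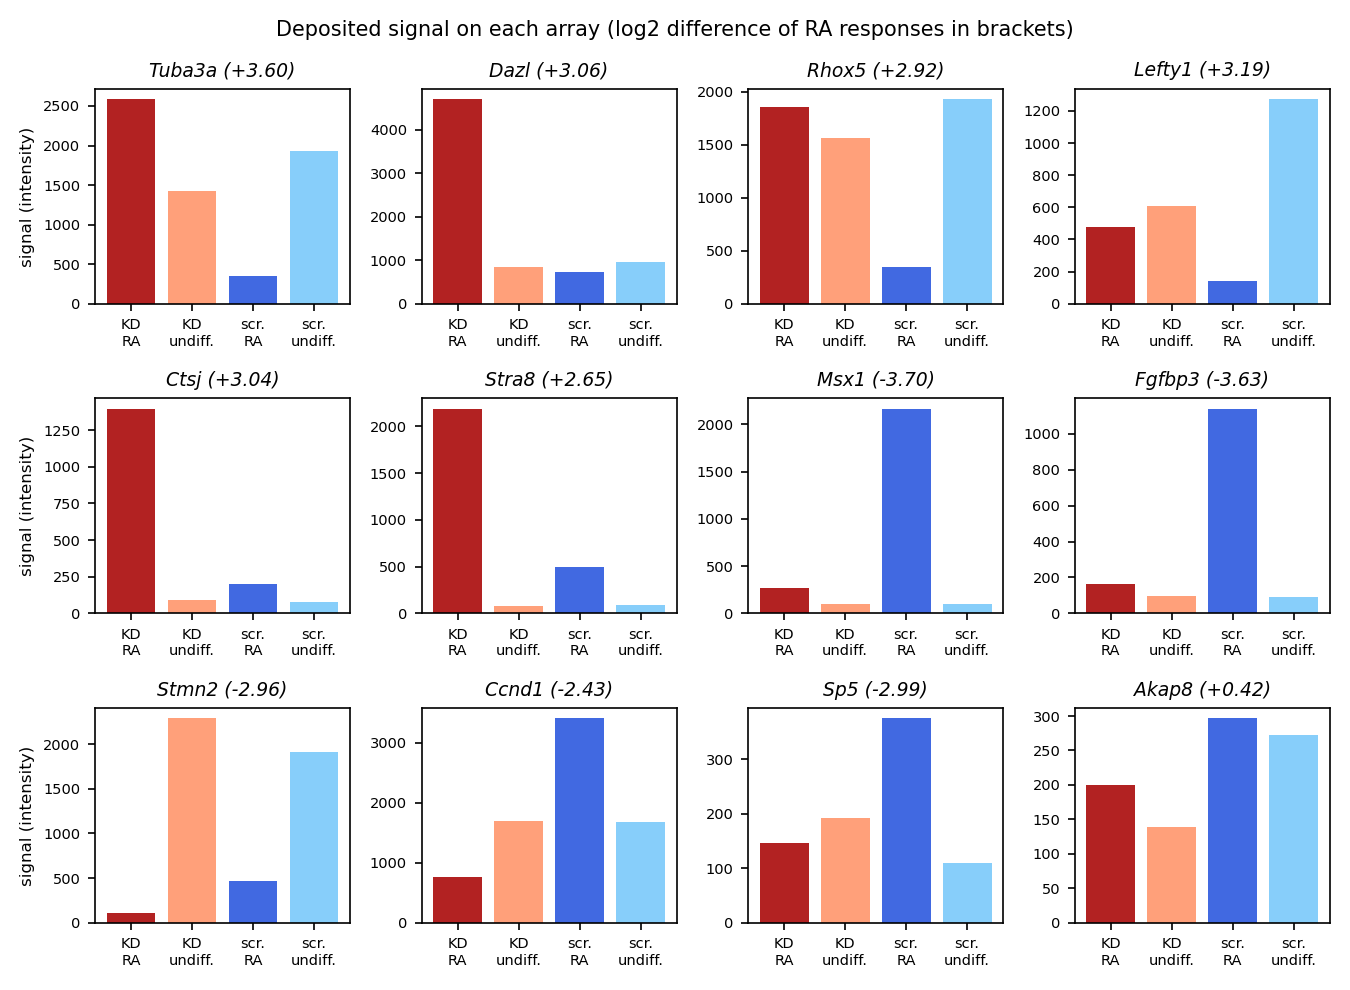
Deposited signal (linear intensity, background included) of 12 genes on the 4 arrays, with the difference of RA responses (log2) in brackets. Bars are in the order knockdown RA, knockdown undifferentiated, scramble RA, scramble undifferentiated. Tuba3a and Rhox5 are low on the scramble RA array alone, Dazl is high on the knockdown RA array alone, Ctsj and Stra8 are highest there and lower on the scramble RA array, and Msx1 and Fgfbp3 are high on the scramble RA array alone.

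Neural genes had differences of the other sign. Of 13 neural and neuronal genes compared, 9 were lower and 1 was higher, the median difference was -1.51, and the median response was -1.03 in the knockdown and 0.38 in scramble cells. Summed over the 34 members with a probe, the signal was 4546 on the knockdown RA array and 10329.5 on the knockdown undifferentiated array, against 12956 on the scramble RA array and 9918 on the scramble undifferentiated array. Over the 13 compared alone, the sums were 2612 and 8967 in the knockdown with and without RA, against 5085 and 8546 in scramble cells. The control's sum thus fell on RA for these, and rose only with the other members included. A further 11 members were detected on RA arrays alone and so have no value here, and 9 were detected on no array.

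Several neuronal genes were on before RA and were lower after it in the knockdown. Stmn2, a microtubule regulator of growing axons, gave 115 and 2290.5 on the knockdown RA and undifferentiated arrays, against 464 and 1917 on the scramble RA and undifferentiated arrays. It fell 38.7-fold in the knockdown and 4.97-fold in the control, a difference of -2.96. Ina, a neuronal intermediate filament, fell 4.29-fold in the knockdown and stayed level in the control (-2.08). Gap43, a growth cone protein, had 116 and 183 in the knockdown with and without RA, against 414 and 246 in scramble cells, so that its response was 3.99-fold lower in the knockdown. The knockdown RA signals of Stmn2 and Gap43 were not far above the lowest detected on that array (88.4). With no background correction the differences of Stmn2, Ina and Gap43 were -2.30, -1.68 and -1.46. Before RA these genes were on in both populations, and after RA the knockdown was the lower one for each.

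Fez1, which carries cargo for axon growth, moved in opposite directions. Its signal was 172 on the knockdown RA array and 327 on the knockdown undifferentiated array, against 839 and 335 on the scramble RA and undifferentiated arrays. It fell 3.06-fold in the knockdown and rose 2.24-fold in the control, a difference of -2.78, and its second probe gave -2.58. Tagln3, a neuronal actin-binding protein, read 104 and 118 in the knockdown with and without RA, against 404 and 113 in scramble cells, a difference of -2.83. Only the scramble RA array was high for Tagln3. The same held for Draxin, a secreted axon guidance factor and Wnt antagonist (at most -2.77), although its second probe gave -0.58, and for Igfbpl1, of the insulin-like growth factor binding family (-2.42, a bound that can be smaller in size). Diras1, a small GTPase of the Ras family, fell 4.59-fold in the knockdown, a difference of -2.65. The knockdown RA signals of Tagln3, Draxin, Igfbpl1 and Diras1 were near the lowest detected on that array (88.4). With no background correction their differences were -2.04, -1.84, -1.70 and -1.80.

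Among the progenitor genes Nes, an intermediate filament of neural stem cells, rose in both populations and less so in the knockdown (1.41 against 2.53), as did the dendritic protein Map2 (1.31 against 2.59). Syp, Dpysl3, Crmp1 and Elavl4 completed the lower members, at -1.79 (Elavl4, a bound that can be smaller in size) to -1.51 (Syp). Among the members that were not lower were Nefh, the heavy neurofilament (at least 1.08), and Zic2 (-0.16), which is also on in pluripotent cells.

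Msx1, a homeobox gene of the neural crest and dorsal neural tube, had the most negative difference of all genes. Its signal was 271 on the knockdown RA array and 101 on the knockdown undifferentiated array, against 2164 on the scramble RA array and 94.2 on the scramble undifferentiated array. It rose 2.87-fold in the knockdown and 37.1-fold in the control, a difference of -3.70. Msx1 is also a known target of BMP signals. The other 4 neural crest genes compared had negative differences short of 2-fold, with Twist1 just short of -1 and Ngfr at -0.76.

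The retinoid genes did not move as a block. Of 11 compared, 4 were lower and 1, Stra8, was higher, with a median of -0.29, or -0.60 where detection on all 4 arrays was asked for. Crabp1 and Crabp2 bind RA in the cytoplasm, the second passing it to the receptors. Crabp1 gave 232 and 142 on the knockdown RA and undifferentiated arrays, against 1008 and 206 on the scramble RA and undifferentiated arrays, a difference of -1.81. Crabp2 rose 5.73-fold in the knockdown and by 21.7-fold in the control (at most -1.92). The homeobox gene Meis1, an early RA target, rose in both (4.13 and 5.17). It was already higher in the knockdown before RA, by 0.79, and differed by only -0.25 on the RA arrays. Gbx2, a stem cell and hindbrain factor, fell further in the knockdown (-3.77 and -2.10). The receptors Rarg, Rxra and Rxrb differed by -0.22 to -0.07. The control's response was thus larger for Crabp1 and Crabp2, and Rarg, Rxra and Rxrb differed little. Of the 27 members with a probe, 12 were detected on RA arrays alone and so have no value here. Among them were the receptors Rara and Rarb, and Cyp26a1, Stra6 and Nr2f1.

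Few Hox genes could be compared, since 19 of 39 were detected on RA arrays alone. Of the 3 with a value, Hoxa13 differed by 0.25 and Hoxd8 by at most -0.01. None of the 3 passed 2-fold, and the sign of the list median turned under 4 alternatives, so no direction was read.

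Genes of the FGF and Nodal pathways had differences of both signs. Fgfbp3, which releases FGFs from the matrix, gave 161 and 95.6 on the knockdown RA and undifferentiated arrays, against 1141 and 89.6 on the scramble RA and undifferentiated arrays. It was high on the scramble RA array alone, a difference of -3.63. Fgf15, an FGF ligand, differed by at most -1.86, and the ERK phosphatases Dusp4 and Dusp6, feedback inhibitors that FGF signals induce, by -1.21 and -0.78. The FGF-responsive ETS factors Etv4 and Etv5 fell strongly in both populations, with differences of -0.42 and -0.65. Of 12 FGF and Nodal genes compared, 3 were higher, namely Lefty1, Lefty2 and Nodal, and 3 were lower.

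Of 17 Wnt and BMP genes compared, 6 were lower and 1 was higher, and the median was -0.81. Sp5, a direct Wnt target in stem cells, gave 147 and 192 on the knockdown RA and undifferentiated arrays, against 375 and 109.9 on the scramble RA and undifferentiated arrays. It fell 2.04-fold in the knockdown and rose 3.90-fold in the control. It was already higher in the knockdown before RA, by 1.23, so its difference of -2.99 has parts at both ends. Axin2, the feedback inhibitor used as a general Wnt readout, had a smaller difference (-0.82). Among ligands, Bmp4 differed by -1.33 and Wnt3a by at most -1.41; Wnt5a, induced in both, differed by at least -0.61. Id1, Id2 and Id3, targets of BMP, had differences of -0.36, -1.24 and -0.85, and the Wnt antagonist Sfrp1 had -1.28. Fzd5, a Wnt receptor, was the one higher member at 1.09.

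Ccnd1, cyclin D1, which drives cells from G1 into S phase and is a Wnt target, also moved in opposite directions. Its signal was 765 on the knockdown RA array and 1701 on the knockdown undifferentiated array, against 3406 and 1674 on the scramble RA and undifferentiated arrays. Before RA the populations were alike, and after it the gene had fallen 2.69-fold in the knockdown and risen 2-fold in the control. Its 3 probes gave -2.55 to -2.43. Cyclin D2 (Ccnd2), one of the most strongly induced genes, read 4616 and 307 in the knockdown with and without RA, against 12149.8 and 315 in scramble cells (-1.33). The remaining 24 cell cycle genes were all within 2-fold, among them cyclin D3 (0.12), Pcna (-0.22), Cdk1 (-0.34), Top2a (0.20) and Mcm5 (0.50). The list median was -0.03, and its sign turned with the deposited median-normalized values.

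**Figure D5:**
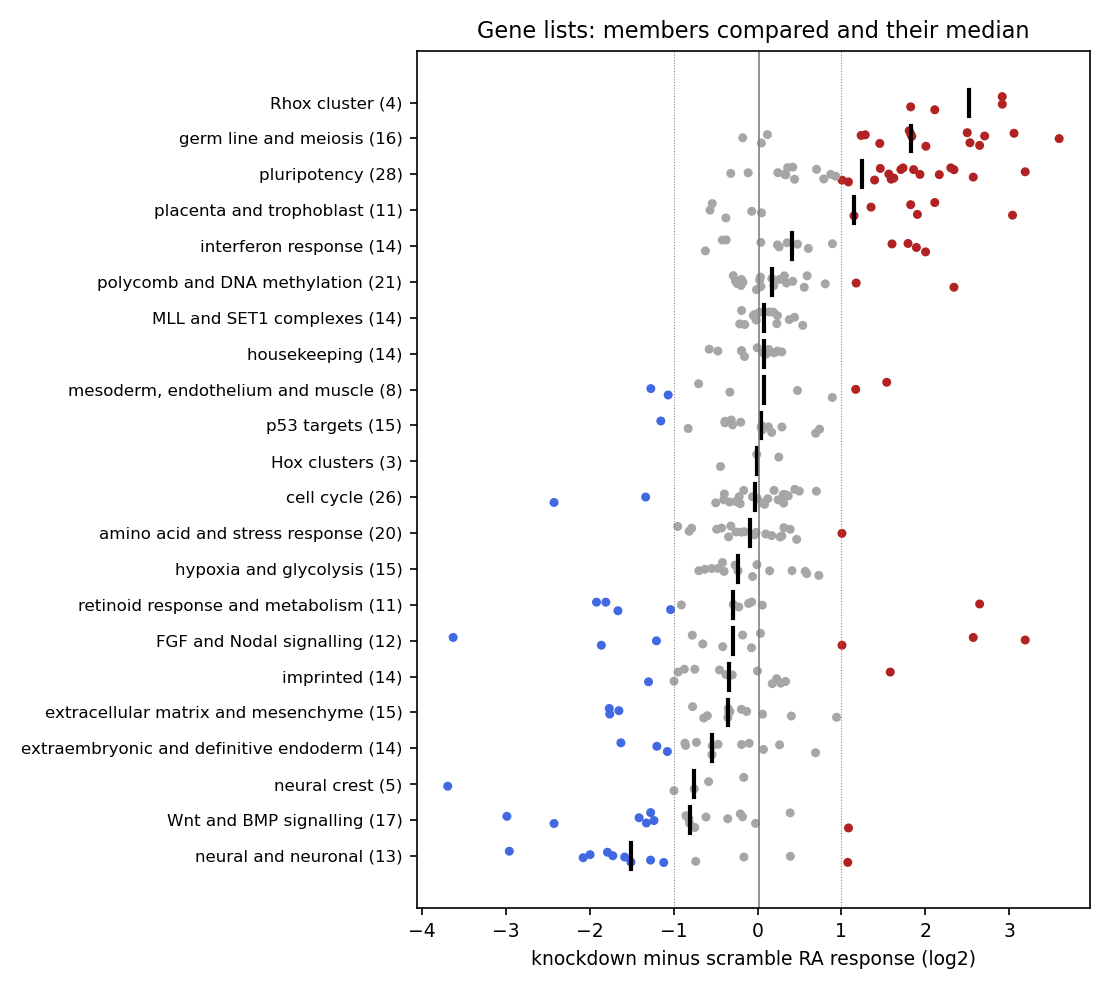
Difference of RA responses (log2, knockdown minus scramble) of the members of 22 gene lists that could be compared, 1 point per gene, with the number compared in brackets; points past 1 or -1 are coloured, and the black mark is the list median. Rhox, germ line, pluripotency and placental genes lie to the right of the grey line (median of all genes, 0.02), and neural genes to the left with a median of -1.51.

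The other lineages had smaller shifts. Of 14 endoderm genes, 3 were lower and none higher, with a median of -0.54. Gata6, the factor that drives primitive endoderm, had responses of 2.25 in the knockdown and 3.46 in the control (-1.20), while its fellow regulators Foxa1 and Sox7 differed by 0.26 and -0.19. Sox17 differed by -1.08, a bound that can be smaller in size and that fell below 2-fold under 5 alternatives. Spink1, a trypsin inhibitor, was the most negative member at -1.63, but it was on before RA, and higher in the knockdown there (0.97). Its RA signals were close to background in both populations. The 8 mesoderm, endothelium and muscle genes gave 2 higher and 2 lower: Myl4, an atrial myosin light chain, at 1.54, Pecam1 at 1.17, Gata2 at -1.07 and Actc1, cardiac actin, at -1.27. The second probe of Pecam1 gave only 0.16.

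Matrix and mesenchyme genes that RA induced were induced less in the knockdown by 2-fold or more in 3 cases of 15. Vim, the mesenchymal and progenitor filament vimentin, gave 976 and 485 on the knockdown RA and undifferentiated arrays, against 2167 and 375 on the scramble RA and undifferentiated arrays (-1.76). Igfbp4, which binds insulin-like growth factors, had -1.77, and the adhesion protein Tgfbi had -1.65. The list median was -0.35. Of 14 imprinted genes, expressed from 1 parental copy, 1 was higher and 1 lower. Phlda2, a growth restrainer of the placenta, fell less in the knockdown (1.58), and Mest rose less (-1.30, with its 3 probes at -1.30 to -1.08). Dlk1, H19 and Igf2 were strongly induced in both populations, with differences of -0.30 and -0.45 for the first 2 and just short of -1 for Igf2.

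Interferon-inducible genes included 4 higher members of 14 and none lower, with a median of 0.42. Ifi27 read 1492 and 91.4 on the knockdown RA and undifferentiated arrays, against 387 and 87.7 on the scramble RA and undifferentiated arrays, a response 4.01-fold higher in the knockdown. Irf1, a transcription factor of the interferon response, gave 2468 and 1037 in the knockdown with and without RA, against 748 and 1064 in scramble cells (1.90, 4 probes at 1.49 to 1.90). Gbp3 and Gbp2, neighbouring guanylate-binding proteins, had 1.80 and 1.60. Stat2, which carries the interferon signal, differed by 0.26, and Ifit2 and Ifitm3 had negative values of -0.42 and -0.62. The higher members were therefore a few genes and not the whole response.

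Stress, p53 and metabolic genes mostly fell short of 2-fold. Of 15 p53 targets, only Tnfrsf10b passed 2-fold (-1.15), and its 3 probes ran from -1.15 to 0.74; Cdkn1a, the p53-induced cell cycle inhibitor, differed by -0.30. Of 20 amino acid and stress response genes, only the arginine transporter Slc7a3 passed (1.01), and of 15 hypoxia and glycolysis genes none did.

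The chromatin complexes to which AKAP95 is linked had RA responses that differed by less than 2-fold between the populations. None of 14 MLL and SET1 complex genes passed 2-fold, and they ran from -0.21 (Ncoa6) to 0.54 (Kmt2b, which encodes an H3K4 methyltransferase). The shared core subunits Wdr5, Rbbp5, Ash2l and Dpy30 had -0.05, 0.24, 0.38 and -0.02. Of 21 polycomb and DNA methylation genes, 2 were higher: Dnmt3l, described above, and Cbx7, the polycomb reader of stem cells. Cbx7 gave 999 and 924 on the knockdown RA and undifferentiated arrays, against 472 and 970.2 on the scramble RA and undifferentiated arrays, so that it fell in the control and stayed level in the knockdown (1.18). Ezh2, the H3K27 methyltransferase, and Mga and E2f6, subunits of the complex that silences germ line genes, differed by -0.24, -0.20 and -0.26. The maintenance methyltransferase Dnmt1 differed by 0.04. Among 14 housekeeping genes none passed 2-fold, and Actb and Gapdh had 0.13 and -0.19.

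The promoters of the called genes were compared by CpG content over the same 300-base window. Higher genes had a median of 13 CpGs (213 of 283 with a sequence), lower genes 19.5 (128 of 179), and all genes compared 21 (6598 of 8200). The TATA box TATAAA, searched on both strands, was in 12.7% of higher, 12.5% of lower and 6.94% of all promoters. The 2 genes with the largest difference of each sign show the range, with CpGs in capitals, 5′ to 3′ on the minus strand of GRCm38.p6, on which all 4 lie, with 12, 2, 29 and 9 CpGs.
Tuba3a (chr6:125286032-125286331): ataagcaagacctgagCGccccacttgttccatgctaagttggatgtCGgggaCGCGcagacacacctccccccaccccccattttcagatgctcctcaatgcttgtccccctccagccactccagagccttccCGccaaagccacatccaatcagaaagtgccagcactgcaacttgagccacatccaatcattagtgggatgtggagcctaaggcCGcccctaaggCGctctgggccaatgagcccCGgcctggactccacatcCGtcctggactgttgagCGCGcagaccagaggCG
Tex19.2 (chr11:121118628-121118927): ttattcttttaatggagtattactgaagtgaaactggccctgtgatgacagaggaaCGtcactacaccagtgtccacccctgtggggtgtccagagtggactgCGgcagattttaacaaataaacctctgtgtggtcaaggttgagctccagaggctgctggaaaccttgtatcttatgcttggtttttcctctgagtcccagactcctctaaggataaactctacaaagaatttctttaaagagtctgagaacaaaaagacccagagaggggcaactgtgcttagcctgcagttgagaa
Msx1 (chr5:37824536-37824835): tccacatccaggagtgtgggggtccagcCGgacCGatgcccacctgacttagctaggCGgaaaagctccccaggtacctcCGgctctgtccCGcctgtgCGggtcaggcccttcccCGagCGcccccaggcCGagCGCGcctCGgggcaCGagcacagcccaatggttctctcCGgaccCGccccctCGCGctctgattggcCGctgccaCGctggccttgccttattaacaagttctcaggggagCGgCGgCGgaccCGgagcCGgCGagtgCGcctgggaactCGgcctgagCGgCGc
Fgfbp3 (chr19:36919550-36919849): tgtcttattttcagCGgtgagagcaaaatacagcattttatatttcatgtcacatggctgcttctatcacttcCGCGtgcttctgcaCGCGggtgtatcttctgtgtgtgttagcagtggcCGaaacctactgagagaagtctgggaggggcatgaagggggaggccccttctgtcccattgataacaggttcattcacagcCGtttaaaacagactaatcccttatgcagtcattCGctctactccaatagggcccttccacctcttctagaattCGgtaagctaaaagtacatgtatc
Msx1 has the CpG-dense promoter usual for developmental homeobox genes, and Tex19.2 has almost none. The shares and medians describe the genes called and were not tested.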

How the data were processed

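Total RNA of 4 samples was labelled as biotinylated cRNA and read on Illumina bead arrays. Per the file headers, the deposited table holds the linear intensity of each probe, not normalized, and its detection p-value; a second deposited table adds each signal divided by its array median, a ratio the submitters call median-normalized, which was recomputed for all 25697 probes within a relative tolerance of 1e-05. The scanner software and settings are not given in the sources used here. In the present work signals were background-corrected by normexp with negative controls inferred from the detection p-values (limma 3.58.1, R 4.3.3), quantile-normalized and set to log2 after an offset of 16. An undetected array (p of 0.01 or more) was raised to the lowest detected level of that array, which gives the bounds. Of several kept probes the one with the highest mean stood for its gene. RefSeq accessions named 23876 probes (92.9%), symbols or synonyms 1438, and 383 kept the file's name.

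With 1 array in each of 4 groups there are 0 residual degrees of freedom, so sizes are given with no test, and the number of arrays limits the precision. The genes named are the 10 largest differences of each sign that passed 2-fold under all value alternatives, up to 5 genes of each sign with opposite 2-fold responses, up to 3 members of each of 23 gene lists past 2-fold, and Akap8 with Akap8l; other list members named beside them illustrate their list. The members, lists and thresholds were chosen with earlier results of these data known. Alternatives were another detection threshold, detection on all 4 arrays, no background correction, median scaling, the deposited median-normalized ratio, an offset of 50, the mean of all kept probes and no floor. The calculation was tested on simulated data. Values of some list members are not reported here.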

Additional observations from a re-analysis of the deposited data

Results flagged for a closer look

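Genes with 2-fold RA responses in opposite directions are those where the sign of the effect differs between the populations; each is 1 array per group, so the difference was not tested. Mageb4 (2.83), Rbm44 (2.70) and Ccdc172 (at least 2.27) rose in the knockdown and fell in scramble cells. Rbm44, an RNA-binding protein of germ cell bridges, read 445 and 189.8 on the knockdown RA and undifferentiated arrays, against 130.1 and 255 on the scramble RA and undifferentiated arrays. Ccdc172, a coiled-coil protein of sperm, read 261 and 112 in the knockdown with and without RA, against undetected and 119 in scramble cells. Sp5 (-2.99), Fez1 (-2.78) and Ccnd1 (-2.43) fell in the knockdown and rose in scramble cells.

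Genes detected on the RA arrays alone have no RA response to compare, yet they carry a signal. Of 1148 such genes, the knockdown RA array was 2-fold higher for 24 and 2-fold lower for 122, a share of 12.7% in all, and the median knockdown minus scramble value was -0.15. Of 476 genes detected on the undifferentiated arrays alone, 0 were 2-fold higher and 4 were 2-fold lower in the knockdown. These counts rest on 1 array per group and have no test.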

How the results depend on the processing

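The 283 higher and 179 lower genes became 165 and 96 with no background correction, and 184 and 107 with an offset of 50; both shrink the changes of dim genes by construction. The submitters' own median-scaled ratios gave 192 higher and 79 lower genes. Counts under the other alternatives stayed within 1.5 times, from 244 to 344 higher and 148 to 242 lower. Of the 283 higher genes, 163 passed 2-fold under all 4 alternatives of the values, as did 77 of the 179 lower genes. The share of induced genes with a negative difference was 66.7%. It was 71.1% with no background correction and 71.3% with an offset of 50. With median scaling it was 63.4%, and with the submitters' ratios 62.5%. The share of reduced genes with a positive difference was 67.3%, against 71.4% with median scaling and 77.1% with those ratios. Genes on the same arrays are not replicates, so no interval is given for these shares. Of 50 named genes past 2-fold, 44 stayed past it under every alternative that gave a value. Sox17, Actc1, Pecam1, Wnt3a, Tnfrsf10b and Slc7a3, all named as list members, did not, and no sign turned. Genes named for the largest differences had already been required to pass 2-fold under all 4 alternatives of the values. They could not fail those, so the 44 of 50 overstates how well called genes held. The 163 of 283 and 77 of 179 were not selected in this way. The placental median was 0.60, 0.82 and 0.89 with detection on all 4 arrays, no background correction and an offset of 50. Medians close to 0 (Hox, mesoderm, cell cycle, p53, amino acid and housekeeping lists) changed sign under at least 1 alternative. In 4 groups of 2050 genes ordered by mean level, from the dimmest to the brightest, 84, 106, 55 and 38 genes were higher and 71, 64, 32 and 12 were lower. Leaving out an array removes a group, so no such alternative exists. No paired analysis was possible because each group is 1 array and the labels give no replicate number.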

Other observations

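Several called genes lay side by side in the genome, counting only genes that were compared as neighbours. The genes named in this paragraph were chosen after their values were seen. On chromosome 13 the 5 genes Tcstv1, Gm20767, AF067061, BC147527 and Tcstv3 were all higher; Tcstv1 and Tcstv3 belong to a family known from the 2-cell embryo. They are related copies, and cross-binding of their probes was not tested. On chromosome 6, Apobec1, Gdf3, Dppa3 and Nanog, a pluripotency cluster, were all higher, and on the X chromosome Rhox5, Rhox6, Rhox9 and Rhox10 were. Runs of 3 higher genes were Gbp3, Gbp2b and Gbp2 on chromosome 3, 3 Pramel genes on chromosome 4, Nlrp14, Rbmxl2 and Syt9 on chromosome 7, and Xlr4a, Xlr3a and Gm14685 on the X chromosome. Lower neighbours came as pairs, among them the homeobox genes Irx3 and Irx5, the neural genes Crabp2 and Nes, and the fatty acid desaturases Scd2 and Scd1.

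Chromosome 11 stood apart from the other chromosomes. Of its 718 genes compared, 504 (70.2%) had a positive difference and the median was 0.20, against 50.9% and 0.01 for the 7482 other genes. Its median RA response was 0.09 in the knockdown and -0.11 in scramble cells. The median knockdown minus scramble value of the chromosome was 0.19 on the RA arrays and -0.01 on the undifferentiated arrays. Relative to the median of all genes, the shift was 0.15 to 0.20 over the settings run. Among the other chromosomes the medians ran from -0.11 (X) to 0.08 (chromosome 6). On chromosome 11, 45 genes (6.27%) were higher and 10 lower, against 3.18% higher elsewhere. With 1 array per group, what this shift reflects was not tested.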
